A study of Mus musculus with 6 samples.

Results

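Fibroblasts of the colon wall are divided by surface proteins and by genes that fibroblasts of many tissues share, and 10 such genes are described here: *Pdpn*, *Thy1*, *Cd34*, *Cd81*, *Ly6a*, *Ly6c1*, *Pi16*, *Dpp4*, *Dpt* and *Ackr4*. They were found by gene symbol, and all 10 were among the 20327 symbols with tag counts. The libraries compare IL-11+ (EGFP+) with IL-11- (EGFP-) fibroblasts, sorted as cells without Ter119, CD45, CD31 and EpCAM from the inflamed colon, to learn which genes set the IL-11-producing cells apart. Both groups came from *Il11-Egfp* reporter mice on the C57BL/6 background, aged 9 to 15 weeks, that drank 1.5% dextran sodium sulfate (DSS) for 5 days and were analyzed on day 7 (3 libraries per group, from 3 mice). The reporter is a bacterial artificial chromosome transgene with *Egfp* placed in *Il11*, so a cell counts as IL-11+ by transgene fluorescence, and the IL-11- fraction holds every other cell that passed the negative gate. Tags from the 5′ side of polyA RNA (5′Tag-seq) amounted to 1057170, 1078179 and 1169817 in the IL-11- libraries and to 1046538, 1022851 and 1049048 in the IL-11+ libraries, in the order of replicates 1, 2 and 3, which all lists of values by library follow. As a check of the labels, *Il11* had 28, 51 and 89 tags in the IL-11- and 1357, 732 and 2658 tags in the IL-11+ libraries.

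Podoplanin (*Pdpn*) and CD90 (*Thy1*) are glycoproteins used to sort stromal cells, whereas *Dpt*, *Pi16*, *Dpp4* and *Cd34* mark the fibroblasts that lie in the adventitia around vessels and in the interstitium of many organs. In the intestine, fibroblasts deep to the crypts that carry CD34, CD81 and *Ackr4* secrete factors that sustain epithelial stem cells, while fibroblasts directly under the epithelium express BMP and WNT ligands. Sca-1 (*Ly6a*) and Ly6C (*Ly6c1*) belong to a family of small GPI-anchored surface proteins and are common on mouse mesenchymal cells.

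Levels are given as normalized CPM, the tags of a gene relative to the library total in the usual CPM unit, with the totals scaled by the trimmed mean of M values (TMM), and differences as the log2 fold change of IL-11+ over IL-11- fibroblasts. Genes entered the test with a minimum of 10 tags in 3 or more of the 6 libraries. A gene under 10 tags in most libraries of a group was then tested only because of the other group. Of the genes called below, this held through IL-11- for *Pi16*, *Cd59a*, *Tspan15*, *Tek*, *Mcam*, *Ano1*, *Lmod1*, *Cd74* and *Srgn*. It held through IL-11+ for *Tnfsf11* and *Alcam*. Genes below that reached 10 tags in the IL-11- libraries alone add to these. A gene was called higher or lower when its adjusted p from edgeR was under 0.05 and its fold change over 2. Of the 10 genes, 9 were tested, and *Dpp4* did not reach the minimum. *Pdpn* was the 1 gene called higher, *Cd34*, *Cd81*, *Pi16* and *Ackr4* were the 4 called lower, and *Thy1*, *Ly6a*, *Ly6c1* and *Dpt* were not called. Over all 9334 tested genes, 3.44% were called higher and 6.37% lower. By the adjusted p alone, *Thy1* joined the higher genes, which made 2, and *Dpt* the lower genes, which made 5, where 6.84% and 8.7% of all tested genes passed. The groups did not overlap for *Pdpn* and *Thy1* (higher) and for *Cd34*, *Cd81* and *Dpt* (lower), as for 14.5% and 16.7% of all tested genes, and they overlapped for the other 4 tested genes. Their 9 log2 fold changes had a median of -0.96, against -0.01 for all tested genes. A bulk library does not separate fewer cells of a type from less RNA per cell, and this holds for each difference below.

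**Figure D1:**
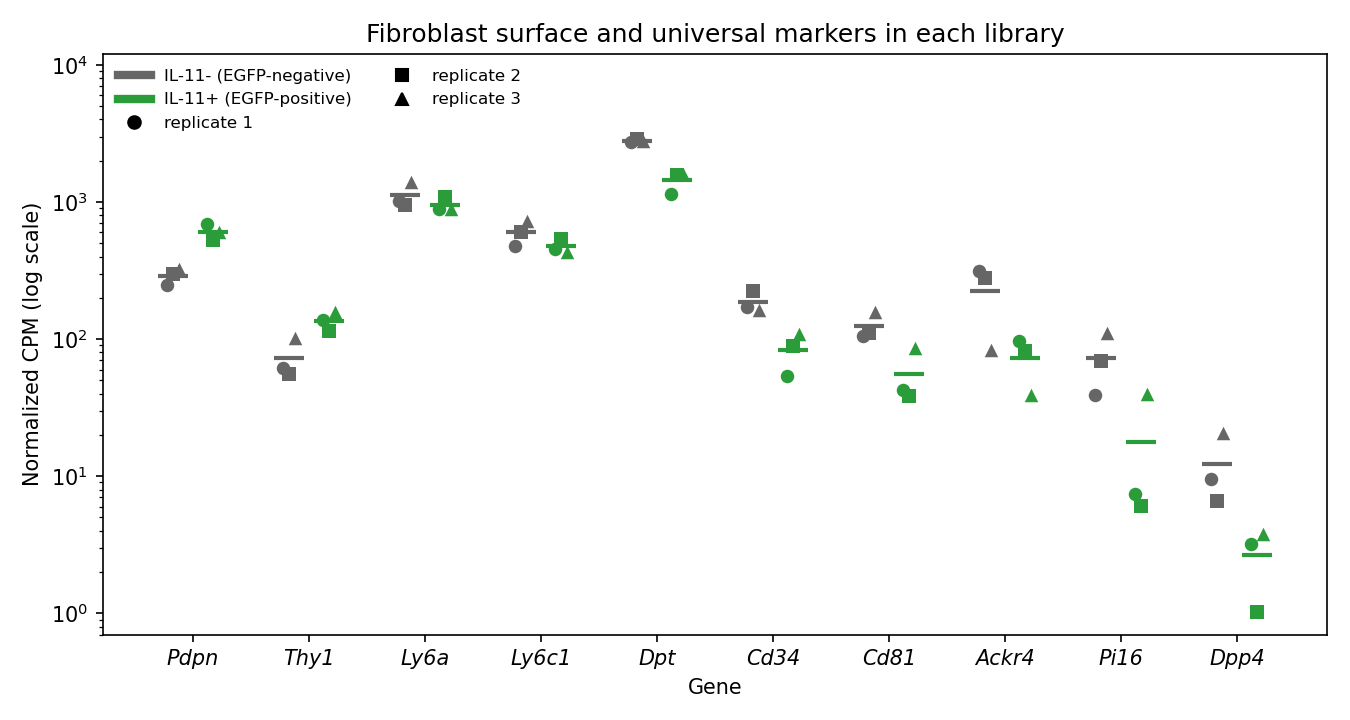
Normalized CPM (log axis) of the 10 genes in each library, with IL-11- libraries in grey, IL-11+ libraries in green, a symbol for each replicate number and a bar at each group mean (n = 3). The groups lie apart for *Pdpn*, *Thy1*, *Dpt*, *Cd34*, *Cd81* and *Dpp4* and overlap for *Ly6a*, *Ly6c1*, *Ackr4* and *Pi16*.

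Podoplanin is a mucin-type glycoprotein that binds CLEC-2 on platelets and links to the actin cytoskeleton through ezrin-family proteins. *Pdpn* (chr4:143267431-143299564, minus strand, GRCm38) had 248.2, 297.7 and 325.2 normalized CPM in the IL-11- libraries and 685.7, 523.9 and 603.7 in the IL-11+ libraries. Every IL-11+ library was above every IL-11- library, and replicate 1 held both the lowest IL-11- and the highest IL-11+ value. The means were 290.4 ± 39 and 604.4 ± 80.9 (SD, n = 3), and the log2 fold change was 1.06 (SE 0.173, 95% interval 0.694 to 1.419, Benjamini-Hochberg adjusted p = 0.000256, edgeR's quasi-likelihood test). The ratio of IL-11+ to IL-11- was 2.76, 1.76 and 1.86 within replicates 1, 2 and 3. *Pdpn* stands just over the fold threshold and lost its call without IL-11- replicate 1 (0.94) and without IL-11+ replicate 1 (0.97). It also fell under the threshold when only library size was scaled for (0.97) and when libraries were scaled to general fibroblast genes (0.87), but these scalings shift all genes downward, with the median of all tested genes at -0.095 and -0.211 against -0.012, and the fall of *Pdpn* is about as large as that shift. CD44, CD9 and ezrin-family proteins bind podoplanin directly. Of 5 tested genes for podoplanin's partners and ligands, none was called by edgeR's quasi-likelihood test or DESeq2, 0 had an unadjusted p under 0.05, and their median log2 fold change was 0.09. Among them, the hyaluronan receptor gene *Cd44* had 0.30 (SE 0.16) and the tetraspanin gene *Cd9* 0.09 (SE 0.177), while *Ezr*, for ezrin, had -0.63 (SE 0.322) and *Msn*, for moesin, 0.27 (SE 0.218).

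CD90 is a GPI-anchored protein of the immunoglobulin superfamily found on T cells, neurons and fibroblasts. *Thy1* (chr9:44043384-44048579, plus strand) had 62.06, 55.59 and 102.6 normalized CPM in the IL-11- libraries and 137.8, 113.7 and 157.4 in the IL-11+ libraries. The IL-11+ libraries were all higher, although IL-11- replicate 3 came close to the lowest of them. The means were 73.4 ± 25.5 and 136.3 ± 21.9 (SD, n = 3), and the log2 fold change was 0.88 (SE 0.218, 95% interval 0.426 to 1.339, Benjamini-Hochberg adjusted p = 0.00832, edgeR's quasi-likelihood test). The difference passed the adjusted p and stayed under the fold threshold, with ratios of 2.22, 2.05 and 1.53 within replicates 1, 2 and 3. The gene was called without IL-11- replicate 3, with a log2 fold change of 1.19, and, just over the threshold, without IL-11+ replicate 2. Without IL-11- replicate 1 or 2 the Benjamini-Hochberg adjusted p was 0.0521 and 0.0768 (edgeR's quasi-likelihood test; from 4.6e-05 to 0.0768 over all alternatives). Since *Thy1* is also a T-cell gene, T-cell markers were read beside it. All 6 T-cell genes in the files were at or under the floor of 3 tags in every library, and their sum was at most 7.54 normalized CPM, in IL-11- replicate 2.

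Dermatopontin is an extracellular matrix protein that binds decorin and TGF-β, and its transcript is common to fibroblasts of many organs. *Dpt* (chr1:164796644-164824266, plus strand) had 2723, 2861 and 2780 normalized CPM in the IL-11- libraries and 1150, 1563 and 1599 in the IL-11+ libraries. The IL-11- libraries were nearly equal, and all 3 IL-11+ libraries lay well below them. The means were 2788 ± 69.5 and 1437 ± 249 (SD, n = 3), and the log2 fold change was -0.96 (SE 0.177, 95% interval -1.327 to -0.584, Benjamini-Hochberg adjusted p = 0.000826, edgeR's quasi-likelihood test). With a fold of 1.94 the gene was not called, but it was called without IL-11+ replicate 2 (-1.01) and without IL-11+ replicate 3 (-1.04). It passed the threshold with library size only (-1.03) and with scaling to general fibroblast genes (-1.16) as well, by about the shift of all genes in those scalings. Of 8 tested genes for matrix proteins and growth factors around dermatopontin, *Tgfb1* and *Col3a1* were higher and none was lower, with a median of 0.42. Decorin (*Dcn*), which dermatopontin binds, had a log2 fold change of 0.67 (SE 0.22), and the related proteoglycan gene *Lum* -0.64 (SE 0.201), both under the fold threshold. The calls of *Tgfb1* and *Col3a1* were each lost in 3 of 14 alternatives.

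CD34 is a sialomucin of hematopoietic progenitors, vascular endothelium and interstitial fibroblasts. *Cd34* (chr1:194938819-194961279, plus strand) had 172.8, 223.3 and 164.2 normalized CPM in the IL-11- libraries and 54.05, 88.33 and 108.7 in the IL-11+ libraries. The groups lay apart, with the largest ratio within replicate 1 and the smallest within replicate 3. The means were 186.8 ± 31.9 and 83.7 ± 27.6 (SD, n = 3), and the log2 fold change was -1.15 (SE 0.217, 95% interval -1.606 to -0.695, Benjamini-Hochberg adjusted p = 0.000977, edgeR's quasi-likelihood test). Without IL-11+ replicate 1 the log2 fold change was -0.91 and the call was lost. Endothelial markers were read beside *Cd34*, because the protein is abundant on vessels. Of 12 listed endothelial genes, 10 were in the files and 3 were tested, of which *Tek* (call lost without IL-11+ replicate 2) and *Esam* were lower, *Esam* reaching 10 tags in the IL-11- libraries alone, and *Eng*, the most abundant, had -0.11 (SE 0.224). Their summed level was 116.5, 147.9 and 154.4 normalized CPM in the IL-11- libraries and 68.9, 70.1 and 56.3 in the IL-11+ libraries, and its part in the result was not tested. The defining gene *Pecam1*, which encodes the sorted-out CD31, had 1 tag in IL-11- replicate 2 and 0 in the other libraries. The 6 tested genes for other sialomucins and their ezrin-family partners gave no call by edgeR's quasi-likelihood test or DESeq2 and 0 unadjusted p under 0.05, with a median of -0.02, which includes *Podxl2*, a gene that reached 10 tags in the IL-11- libraries alone.

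CD81 is a tetraspanin, one of the membrane proteins that organize receptors into microdomains. *Cd81* (chr7:143052739-143067934, plus strand) had 106, 111.2 and 156.8 normalized CPM in the IL-11- libraries and 42.4, 38.6 and 86.8 in the IL-11+ libraries. Replicate 3 was the highest library of both groups, and IL-11+ replicate 3 was still below the lowest IL-11- library. The means were 124.7 ± 28 and 55.9 ± 26.8 (SD, n = 3), and the log2 fold change was -1.15 (SE 0.256, 95% interval -1.687 to -0.613, Benjamini-Hochberg adjusted p = 0.00387, edgeR's quasi-likelihood test). The call was lost without IL-11- replicate 3 (-0.96), IL-11+ replicate 1 (-0.98) or IL-11+ replicate 2 (-0.94), in each case because the fold fell under the threshold. The other tetraspanins and their partners did not move in one direction. Of 18 tested, *Tspan6* (1.64, SE 0.26), *Tspan14* and the partner gene *Ptgfrn* (1.20, SE 0.167) were higher, *Tspan2* (-3.49, SE 0.41) and *Tspan15* (-1.87, SE 0.451) were lower, and the median was 0.17. The call of *Tspan14* was lost in 8 of 14 alternatives, and *Tspan2* reached 10 tags in the IL-11- libraries alone. With scaling to general fibroblast genes, which lowers all genes, 1 of these genes was higher and 2 were lower.

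PI16 is a secreted or membrane-anchored protein of the CAP family, whose transcript marks adventitial fibroblasts. *Pi16* (chr17:29317680-29330593, plus strand) had 39.1, 69.7 and 110.9 normalized CPM in the IL-11- libraries and 7.42, 6.09 and 40.1 in the IL-11+ libraries. The low IL-11+ values stood for 7 and 6 tags, so the gene met the minimum only together with its IL-11- libraries. IL-11+ replicate 3 was slightly above IL-11- replicate 1, so the groups overlapped, although IL-11- was higher within each replicate number, by 5.28-, 11.4- and 2.77-fold. The means were 73.2 ± 36 and 17.9 ± 19.2 (SD, n = 3), and the log2 fold change was -2.01 (SE 0.464, 95% interval -2.982 to -1.033, Benjamini-Hochberg adjusted p = 0.00519, edgeR's quasi-likelihood test). DESeq2 gave a like fold change of -2.02 but no call (Benjamini-Hochberg adjusted p = 0.154, the highest over all alternatives, of which the lowest was 7.48e-12). The DESeq2 fit had no block. With the replicate number as a block, *Pi16* had -2.12 (SE 0.272, Benjamini-Hochberg adjusted p = 1.68e-08, edgeR's quasi-likelihood test). Without IL-11+ replicate 3 the log2 fold change was -3.43, and without the other libraries in turn it ranged from -2.32 to -1.59. Near the 5′ end, 4.92% of the 50-nt windows of *Pi16* transcripts also occur in other genes. The other CAP-family genes gave 0 calls among 3 tested (edgeR's quasi-likelihood test, and DESeq2), of which 1, *Glipr2*, had an unadjusted p under 0.05 and 1 was called higher without IL-11+ replicate 3. Here *Crispld2* had 0.23 (SE 0.196), *Glipr1* 0.96 (SE 0.458) and *Glipr2* 0.74 (SE 0.205). *Glipr2* also passed the adjusted p (Benjamini-Hochberg adjusted p = 0.0173, edgeR's quasi-likelihood test) and stayed under the fold threshold.

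DPP4 (CD26) is a membrane peptidase that cleaves chemokines and incretins, and its transcript accompanies *Pi16* in adventitial fibroblasts. For *Dpp4* (chr2:62330073-62412231, minus strand), 10, 7 and 25 tags were counted in the IL-11- libraries and 3, 1 and 4 in the IL-11+ libraries. The IL-11- libraries were all above the IL-11+ libraries, of which replicates 1 and 2 were at or under the floor of 3 tags. Summed over libraries, 42 tags stood against 8, a 4.7-fold ratio after scaling to the normalized library sizes (95% interval 2.18 to 11.6, counting error only). In a fit without the minimum, over all 20327 symbols, the log2 fold change was -2.12 (SE 0.578, Benjamini-Hochberg adjusted p = 0.00439, edgeR's quasi-likelihood test). The 6 tested genes of related peptidases gave no call by edgeR's quasi-likelihood test or DESeq2, and 2, *Fap* and *Prep*, had an unadjusted p under 0.05. In the fit without the minimum 1 gene of the list was lower, and without IL-11- replicate 3, 1 was higher. The tested genes include *Fap*, the closest relative of *Dpp4*, with -0.56 (SE 0.255), and their median was 0.31.

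ACKR4 is an atypical chemokine receptor that takes up CCL19, CCL21 and CCL25 without classical signaling. *Ackr4* (chr9:104084157-104126933, minus strand) had 315.1, 279.8 and 82.9 normalized CPM in the IL-11- libraries and 97.5, 82.2 and 39.1 in the IL-11+ libraries. Replicate 3 was the lowest library of both groups, so IL-11+ replicate 1 exceeded IL-11- replicate 3, and the groups overlapped while each replicate number showed the lower value in IL-11+ (3.23-, 3.4- and 2.12-fold). The means were 225.9 ± 125 and 73 ± 30.3 (SD, n = 3), and the log2 fold change was -1.63 (SE 0.366, 95% interval -2.399 to -0.862, Benjamini-Hochberg adjusted p = 0.00418, edgeR's quasi-likelihood test). DESeq2 did not call it, with a log2 fold change of -1.62 (Benjamini-Hochberg adjusted p = 0.101, the highest over all alternatives, of which the lowest was 1.19e-13). The DESeq2 fit had no block. With the replicate number as a block, *Ackr4* had -1.57 (SE 0.171, Benjamini-Hochberg adjusted p = 2.61e-10, edgeR's quasi-likelihood test). Of the other receptors and chemokines listed with ACKR4, 3 of 9 in the files were tested. *Cxcl13* was higher (1.21, SE 0.3), although its groups overlapped, replicate 3 was again the lowest in both, and the call was lost in 4 of 14 alternatives, among them DESeq2. *Ackr3*, for an atypical receptor of CXCL12, had -0.82 (SE 0.201, Benjamini-Hochberg adjusted p = 0.0077, edgeR's quasi-likelihood test), under the fold threshold, and *Ccrl2* had 0.12 (SE 0.197). Of the genes for the ligands of ACKR4, *Ccl19* had at most 18.1 normalized CPM, *Ccl21a* at most 4.06 and *Ccl25* at most 2.12, and none was tested.

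Sca-1 is a GPI-anchored antigen of stem, endothelial and mesenchymal cells of the mouse. *Ly6a* (chr15:74994877-74998031, minus strand) had 1016, 943.1 and 1389 normalized CPM in the IL-11- libraries and 894.5, 1084 and 885.9 in the IL-11+ libraries. The groups overlapped, with IL-11- replicate 3 above all other libraries. The means were 1116 ± 239 and 954.9 ± 112 (SD, n = 3), and the log2 fold change was -0.23 whose 95% interval ran from -0.607 to 0.157 (Benjamini-Hochberg adjusted p = 0.481, edgeR's quasi-likelihood test), so a difference over 2-fold lay outside it.

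Ly6C is a related antigen found on monocytes, endothelium and fibroblasts. *Ly6c1* (chr15:75044018-75048830, minus strand) had 480.3, 607.7 and 731.6 normalized CPM in the IL-11- libraries and 451.5, 541.2 and 434.9 in the IL-11+ libraries. The IL-11- library was the higher one within each replicate number, but the groups overlapped. The means were 606.5 ± 126 and 475.8 ± 57.2 (SD, n = 3), and the log2 fold change was -0.35 with a 95% interval of -0.73 to 0.028 (Benjamini-Hochberg adjusted p = 0.228, edgeR's quasi-likelihood test). Both genes lie on one strand of chromosome 15, 46.0 kb apart, and share 5′ sequence. Of the 50-nt windows in the first 300 nt of their transcripts, 29.1% of those of *Ly6a* and 56.7% of those of *Ly6c1* also occur in other genes of the family, so their counts are uncertain. Among pairs of the 9 tested genes, *Ly6a* and *Ly6c1* were also the closest in profile over the 6 libraries (root mean square distance 0.145 on the log2 scale), followed by *Cd34* with *Dpt* (0.224) and *Pdpn* with *Thy1* (0.253). Of 13 other genes of the Ly6 and uPAR family in the files, 4 were tested. *Plaur*, the urokinase receptor gene, was higher (1.13, SE 0.219), *Cd59a*, for a complement inhibitor, was lower (-1.69, SE 0.317), and *Ly6e* (0.15, SE 0.176) and *Ly6c2* (-0.40, SE 0.324) were not called. The call of *Plaur* was lost in 3 of 14 alternatives.

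**Figure D2:**
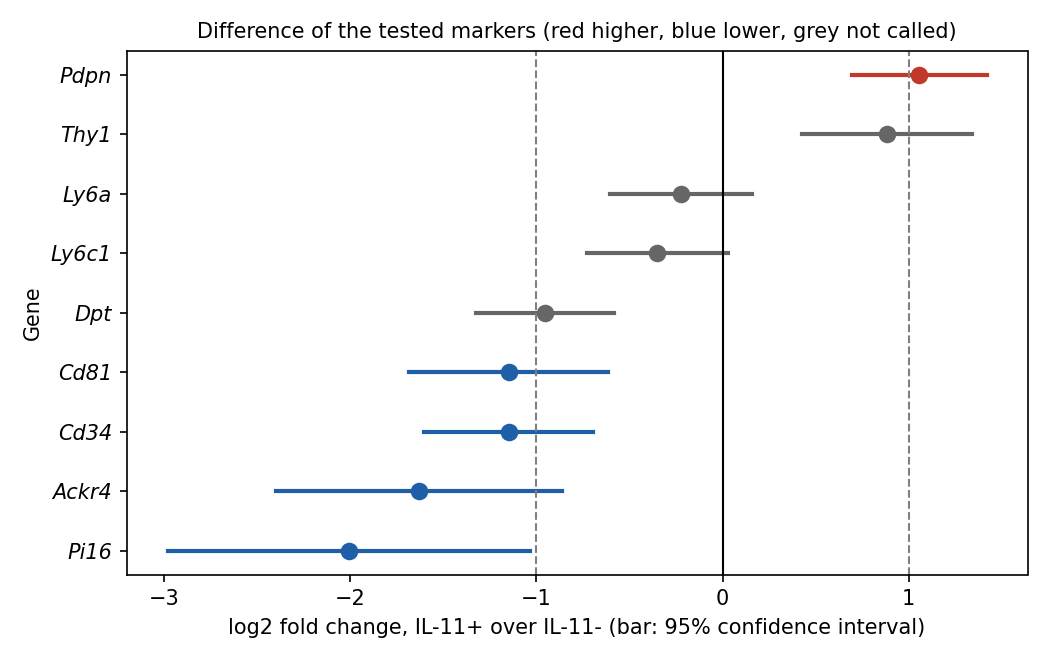
Log2 fold change of IL-11+ over IL-11- fibroblasts for the 9 tested genes, with bars for the 95% confidence interval and dashed lines at the fold threshold of 2. *Pdpn* (red) was called higher, *Cd34*, *Cd81*, *Ackr4* and *Pi16* (blue) were called lower, and the intervals of *Ly6a* and *Ly6c1* include 0.

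Outside the 10 genes, the profile over the 6 libraries nearest to *Pdpn* was that of *Golt1b* (root mean square distance 0.0568 on the log2 scale), among 5062 genes whose mean was 30 tags or more. For *Thy1* it was *Gnpnat1* (0.107), for *Cd34* *Prelp* (0.16), for *Cd81* *Camk2g* (0.151) and for *Dpt* *Fxyd1* (0.0473). The nearest to *Ly6c1* was *Actb* (0.0318) and to *Ly6a* *Zfand6* (0.0716). *Pi16* and *Ackr4* had no close neighbor, with distances of 0.425 to *Cryab* and 0.32 to *Tnfsf9*.

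Genes that mark the same universal or adventitial fibroblasts as *Pi16*, *Dpp4* and *Dpt* were set beside them. Of 18 tested, 8 were lower and 0 higher, with a median log2 fold change of -0.81. These were *Clec3b*, *Entpd2*, *Mfap5*, *Igfbp6*, *Gfpt2*, *Penk*, *Sema3c* and *Tnxb*, of which *Tnxb* lost its call without IL-11+ replicate 1 or 2. *Clec3b*, for tetranectin, had 446.8, 580.4 and 593.7 normalized CPM in the IL-11- libraries and 41.3, 81.2 and 123 in the IL-11+ libraries (log2 fold change -2.71, SE 0.265). *Mfap5*, for a microfibril protein, had -2.07 (SE 0.209) and *Entpd2*, for an ectonucleotidase, -1.83 (SE 0.184), where 32.2% of the 5′ windows of *Entpd2* also occur in *Npdc1*. The list did not move as a whole, since *Col15a1* had 0.60 (SE 0.229), *Cd55* 0.09 (SE 0.243), *Scara5* -0.03 (SE 0.208) and *Procr* 0.98 (SE 0.207). *Ebf2*, which was not tested, had 5.65 to 15.6 normalized CPM in the IL-11- libraries and 0 in each IL-11+ library.

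Genes known from the deep fibroblasts that carry CD34, CD81 and *Ackr4* were set beside these markers. Of 9 tested, *Fgf7* (1.94, SE 0.177), the BMP antagonist gene *Grem1* (1.61, SE 0.188) and *Sfrp1* (1.01, SE 0.174) were higher and none was lower, with a median of 0.21. The call of *Sfrp1* was lost in 6 of 14 alternatives. With the replicate number as a block *Sfrp2* was also higher, which made 4, with a Benjamini-Hochberg adjusted p of 0.00153 in edgeR's quasi-likelihood test, against 0.219 without the block (log2 fold change 1.36, SE 0.686). Its tags were 12, 11 and 57 in the IL-11- libraries against 9, 17 and 159, so replicate 3 carries the level and replicate 1 goes the other way. *Rspo3*, for a WNT potentiator, had -0.25 (SE 0.215) and *Wnt2b* -0.68 (SE 0.276). Of 12 tested genes of fibroblasts under the epithelium, 5 were higher and 0 lower, with a median of 0.81, led by *Nrg1* (3.11, SE 0.228), *Bmp7* (3.24, SE 0.251) and *Tnc* (2.23, SE 0.264). The call of *Bmp5*, also higher, was lost in 3 of 14 alternatives. *Postn* went the other way, with groups that lay apart (-0.85, SE 0.197, Benjamini-Hochberg adjusted p = 0.00526, edgeR's quasi-likelihood test), under the fold threshold. By the adjusted p alone, 6 of the 12 genes were higher and 1 was lower. With scaling to general fibroblast genes, which lowers all genes, 4 of the 12 were higher and 1 was lower. Among 9 genes of reticular stroma, which is also rich in podoplanin, *Tnfsf11*, *Vcam1* and *Cxcl13* were higher and none was lower, with a median of 0.52. The groups overlapped for *Cxcl13*, whose call was lost in 4 of 14 alternatives, among them DESeq2. *Tnfsf11* had 6, 12 and 5 tags in the IL-11- libraries, so it was tested only because of its IL-11+ libraries.

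Of the surface proteins stained beside podoplanin, CD90 and Sca-1 in stromal cells, 6 genes were tested, and *Vcam1* was called higher (1.22, SE 0.204). *Icam1* had -0.20 (SE 0.154) and *Itgb1*, for CD29, -0.09 (SE 0.159). Among 9 genes of mesenchymal stromal cell panels, *Itgav* (1.23, SE 0.214) and *Alcam* (2.01, SE 0.349) were higher and *Mcam* (-2.95, SE 0.295) was lower, and the call of *Itgav* was lost without IL-11+ replicate 1.

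Genes of fibroblasts in general and of other cells that the gate could hold were measured beside these differences. All 17 general fibroblast genes were tested, of which *Col3a1* and *S100a4* were higher and none was lower, with a median of 0.22, where 64.0% of the 5′ windows of *S100a4* also occur in another gene. Their summed level, with *Dcn* the most abundant, was 27420, 28760 and 31020 normalized CPM in the IL-11- libraries and 50490, 42650 and 37310 in the IL-11+ libraries. The sum was higher in IL-11+ fibroblasts, the group in which *Cd34*, *Cd81*, *Pi16* and *Ackr4* were lower. Much of the sum lies in *Dcn*, with group means of 12090 (IL-11-) and 19220 (IL-11+), and *Col3a1*, with 4368 and 9008. The list did not rise as a whole. By the adjusted p alone, 5 of the 17 genes were higher and 2 were lower. The 2 lower genes were *Lum* (-0.64, SE 0.201) and *Fbln1* (-0.71, SE 0.196), and their groups lay apart. When libraries were scaled to these 17 genes in place of TMM, the median of all tested genes shifted by -0.20. Relative to that median *Pdpn* had 1.08, *Thy1* 0.91, *Ly6a* -0.22, *Ly6c1* -0.34, *Dpt* -0.94, *Cd34* -1.13, *Cd81* -1.12, *Ackr4* -1.65 and *Pi16* -1.96. Subtracting the median takes off a shift common to all genes, so these values come near those with TMM by construction. In that scaling *Ly6c1* itself had -0.55 (Benjamini-Hochberg adjusted p = 0.0451, edgeR's quasi-likelihood test), under the fold threshold.

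All 9 smooth muscle genes were lower in IL-11+ fibroblasts, with a median of -4.04. Their sum was 2735, 3372 and 4233 normalized CPM in the IL-11- libraries and 107, 177.7 and 359.5 in the IL-11+ libraries, with *Myh11* the most abundant by mean in IL-11- and *Tagln* in IL-11+ fibroblasts. Pericytes wrap capillaries, and interstitial cells of Cajal pace the gut muscle. Of 8 tested pericyte genes, 6 were lower, with a median of -3.03. Their sum was 2543, 2212 and 2028 in the IL-11- libraries and 946.5, 793 and 701.9 in the IL-11+ libraries, with *Rgs5* the most abundant by mean in IL-11- and *Abcc9* in IL-11+ fibroblasts. *Rgs5* had 1863, 1602 and 1478 normalized CPM in the IL-11- libraries and 197.1, 176.7 and 196.5 in the IL-11+ libraries (log2 fold change -3.12, SE 0.18). *Abcc9* (0.66, SE 0.182) and *Kcnj8* (0.71, SE 0.227) went the other way and were not called. They passed the adjusted p (Benjamini-Hochberg adjusted p = 0.0167 and 0.0394, edgeR's quasi-likelihood test) and stayed under the fold threshold. These 2 genes make up most of the IL-11+ sum. All 4 genes of interstitial cells of Cajal were lower, *Etv1* not without IL-11- replicate 1, with sums of 289.3, 187.5 and 273.4 in the IL-11- libraries and 23.3, 23.4 and 53.4 in the IL-11+ libraries, and with *Ano1* the most abundant by mean in IL-11- and *Etv1* in IL-11+ fibroblasts. The glial genes *Gfap* (-4.76, SE 0.595) and *Mbp* (-2.21, SE 0.5) were lower, and *Ncam1* had 0.15 (SE 0.241). *Kit* and *Thbs4* of the Cajal cell list, *Notch3*, *Cox4i2* and *Ndufa4l2* of the pericyte list, *Cnn1* of the muscle list, *Gfap* and *Mbp* reached 10 tags in the IL-11- libraries alone, so they could be tested only because they were high there, and the counts of lower genes and the medians of these lists lend no support. *Ano1*, *Lmod1* and *Mcam*, under 10 tags in most IL-11+ libraries, were likewise tested only because of their IL-11- libraries. The part of these cell types in the differences of *Cd34*, *Cd81*, *Pi16*, *Ackr4*, *Dpt* and *Dpp4* was not tested.

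Markers of cells that the gate removes, and of mesothelial cells, which it does not address, were also summed. Leukocyte genes summed to at most 78.2 normalized CPM, in IL-11- replicate 2, where *Cd74* was the most abundant, while *Srgn* was by mean in both groups, and *Cd74* and *Srgn*, the 2 tested, were lower. The call of *Cd74* was lost in 5 of 14 alternatives, among them DESeq2, and that of *Srgn* in 2. The defining gene *Ptprc*, for CD45, had at most 5.75 normalized CPM. Epithelial genes summed to at most 54.2, with *Lgals4*, the 1 tested, most abundant and lower (call lost in 3 of 14 alternatives), and *Epcam* had at most 0.955. Lymphatic endothelial genes summed to at most 11.5. Mesothelial genes summed to 15.3, 6.6 and 27.1 in the IL-11- libraries and 1.06, 0 and 1.91 in the IL-11+ libraries. None of either list was tested, although in the fit without the minimum 2 mesothelial genes were lower. The part of mesothelial cells in the differences was not tested. Hemoglobin transcripts are the main messages of maturing red cells. Erythroid genes summed to 90.7, 0 and 305.5 in the IL-11- libraries and 19.1, 2.03 and 19.1 in the IL-11+ libraries, with *Hbb-bs* the most abundant, and their part in the values of IL-11- replicate 3 was not tested.

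**Figure D3:**
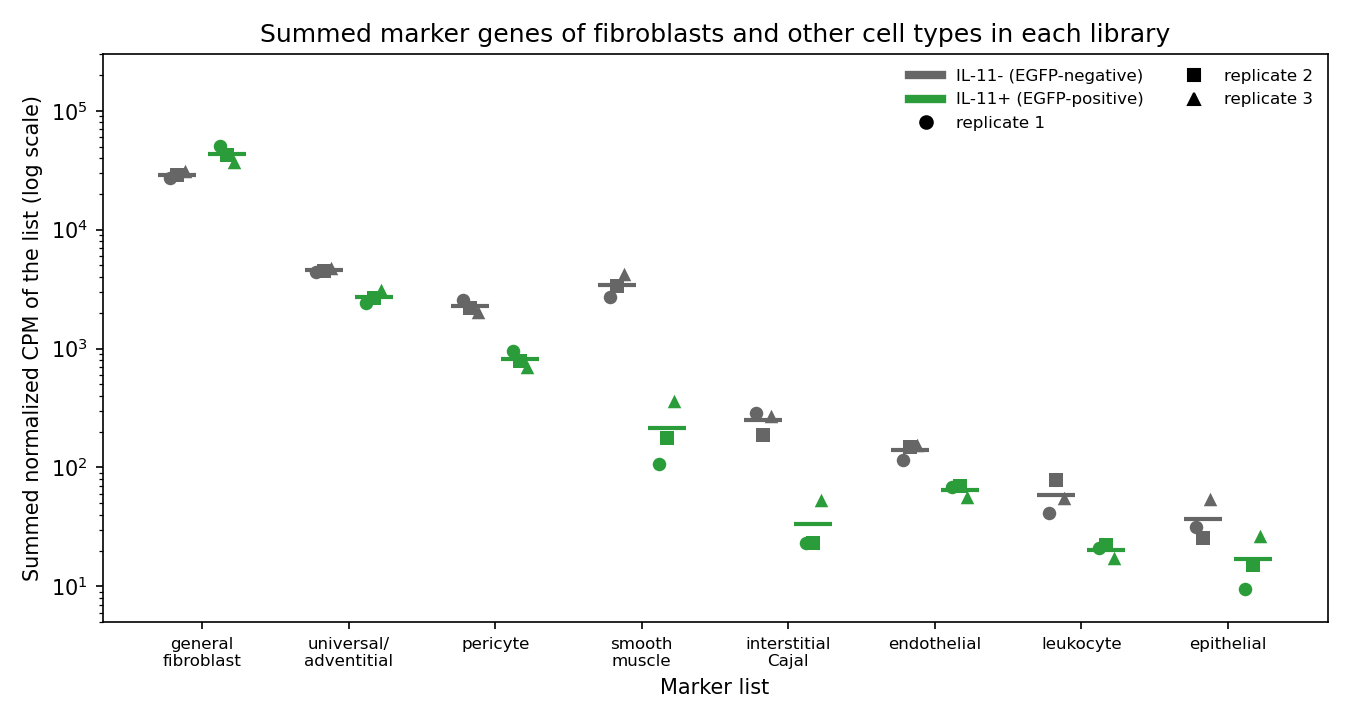
Summed normalized CPM (log axis) of marker genes of fibroblasts and other cell types in each library, with IL-11- libraries in grey, IL-11+ libraries in green, a symbol for each replicate number and a bar at each group mean (n = 3). General fibroblast genes summed higher in all IL-11+ libraries, and the other lists shown summed lower, except that the epithelial sum of IL-11+ replicate 3 was above that of IL-11- replicate 2.

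Promoter sequences are shown because several of the 10 genes differed in one direction. The RefSeq promoters (GRCm38.p6) hold 8 of the 10 genes, without *Thy1* and *Ly6a*, and the 250 bases upstream of each start were searched on both strands. The AP-1 letters TGANTCA occur in 6.75% and the CRE letters TGACGTCA in 1.55% of all 32851 promoters, and neither string is in the windows of these 8 genes. The STAT letters TTCNNNGAA occur in 7.02% of all promoters and in *Dpt*, the GC box GGGCGG in 32.7% and in *Cd81*, the TEAD letters GGAATG in 12.6% and in *Dpp4*, and the TATA box TATAAA in 12.4% and in *Dpp4*, *Ackr4* and *Ly6c1*. The TATAAA letters begin 227 bases upstream of the start in *Dpp4*, 185 in *Ackr4* and 143 in *Ly6c1*. None of the 8 matches overlapped a match of another motif. The stretches below run 5′ to 3′ on the strand of the gene, with the matched letters in capitals, and a match is a description and not a binding site.
*Dpt*, STAT letters, chr1:164796515-164796563, plus strand: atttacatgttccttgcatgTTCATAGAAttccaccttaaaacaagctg
*Cd81*, GC box, chr7:143052667-143052712, plus strand: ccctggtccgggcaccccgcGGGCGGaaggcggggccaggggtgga
*Dpp4*, TATA box, chr2:62412433-62412478, minus strand: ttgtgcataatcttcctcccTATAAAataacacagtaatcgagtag
*Ly6c1*, TATA box, chr15:75048955-75049000, minus strand: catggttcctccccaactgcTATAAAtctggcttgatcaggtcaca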

How the data were processed

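The authors used cutadapt 1.18 to trim the reads and Bowtie2 2.2.5 to map them to mouse RefSeq RNA (mm10), allowing one orientation, and took the number of tags of a gene as its count. The deposited values are these counts per gene symbol, without normalization, in 6 libraries. How tags that fit several genes were assigned is not given in the sources used here. The floor was set at 3 tags, or 2.56 to 2.93 CPM at these depths. Floors and intervals of counts cover counting error only, since amplified tags are not independent molecules.

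Counts were analyzed in R 4.3.3 with edgeR 4.0.16 (TMM, glmQLFit and glmQLFTest, Benjamini-Hochberg adjustment over all tested genes), with the group as the only term. The fit was tested on simulated data, where 185 of 187 tested genes with a set change were recovered and 7 calls were false. The set changes were all well over the fold threshold, and the simulated libraries were not paired. The recovery therefore does not cover genes near the threshold, such as *Pdpn*, *Cd34*, *Cd81* and *Dpt*. The methods name the TCC package for normalization but no settings, and iterative TMM with 3 rounds and a first-round p of 0.1, both chosen here, was run as an alternative. Other alternatives were RLE scaling, library size only, DESeq2 1.42.0, no minimum on tags, a minimum of 30 tags, the replicate number as a block, the adjusted p alone and each library left out. Scaling to 17 general fibroblast genes was added after seeing the data.

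Replicate numbers come from the sample labels, and the methods name 3 mice. The deviations of same-numbered libraries from their group means went together over 5063 genes averaging 30 tags or more (r of 0.23, 0.185 and 0.261 across genes, which are not independent replicates), so the numbers were taken to pair the libraries.

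The 10 genes and the lists around them were chosen with earlier results of these data known. Named are the 10 genes, *Il11*, genes of the lists (in longer lists those called with the smallest p and those used as background) and the genes nearest in profile. Positions and overlaps come from GENCODE mouse release M21 (GRCm38). Proteins were not analysed here. The summed level of glial genes is not reported here.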

Additional observations from a re-analysis of the deposited data

How the results depend on the processing

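Higher and lower calls over all tested genes (321 and 595) became 638 and 812 by the adjusted p alone, 208 and 326 with a minimum of 30 tags, where 5275 genes were tested, and 198 and 834 with scaling to general fibroblast genes, which was chosen after seeing the data. With each library left out in turn they ranged from 251 to 306 and from 341 to 579, with 341 lower genes without IL-11- replicate 1 and 355 without IL-11- replicate 2, where 200 and 199 of the 595 genes were no longer tested. Of the 10 genes, 1 higher and 4 lower calls became 0 and 5 with library size only and with scaling to general fibroblast genes (median of all tested genes -0.095 and -0.211, against -0.012), 2 and 5 by the adjusted p alone, and 1 and 2 with DESeq2. With each library left out they ranged from 0 to 2 and from 2 to 5. Without IL-11+ replicate 1, *Pi16* and *Ackr4* were the only ones still called, and *Pdpn* was also lost without IL-11- replicate 1. None of the 9 tested genes changed direction in 14 alternatives. The cause of these moves was not tested, except that fewer genes are tested with a higher minimum, that *Pdpn* and *Dpt* stand close to the fold threshold, and that these 2 scalings lower all genes by about as much as *Pdpn* and *Dpt* moved.

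With the replicate number as a block, which pairs the libraries, 337 genes were higher and 648 lower, and the 10 genes gave the same 1 higher and 4 lower calls. The block changed no call of the 9 tested genes and, among genes of the lists, that of *Sfrp2*.

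Depth limits *Dpp4* and the low values of *Pi16*. Of 315 counts of called list genes under the alternatives, for lists and directions with a count above 0, 259 stayed within 1.5 times that count and 56 moved further.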
